A study of Mus musculus with 12 samples.

Results

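The B cell lineage genes described here are 9 protein-coding genes, Cd79a, Cd79b, Blk, Cd22, Cr2, Ms4a1, Fcer2a, Fcmr and Pax5, read in the inguinal white adipose tissue (iWAT) of mice, the fat under the skin of the groin. They were chosen by gene symbol for what they are known to do in B cells, and the rule itself uses no measured value. All 9 were found among the 33200 gene identifiers of the count table, and all 9 passed the filter on low counts. The tissue came from 3 Nrep-/- mice, which carry a global knockout (KO) of Nrep made by CRISPR/Cas editing, and from 3 wild-type (WT) C57BL/6 mice. All 6 were fed a maintenance diet and were 16 weeks old. The libraries were made from poly(A) RNA and are described as biological replicates, and liver libraries of these genotypes were not analysed here. This comparison asks what differs with Nrep genotype within the fat depot.

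B cells carry a membrane immunoglobulin that binds antigen, and CD79A and CD79B carry its signal into the cell. Around this receptor sit kinases, co-receptors that raise its signal and inhibitors that dampen it, and the transcription factor PAX5 holds the lineage in place. In mice the inguinal lymph node lies within the inguinal fat pad, and B cells fill its follicles. The summed level of the 9 genes is used below as an index of B cell RNA, and through it of lymph node content, per library. The sources used here do not say whether the node was left in or removed at dissection, and node content was not measured apart from these RNAs. In bulk tissue, fewer B cells and less RNA per B cell cannot be told apart.

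Nrep itself had 0.115, 0.0985 and 0.278 CPM (counts scaled to library size, with factors from the trimmed mean of M-values, TMM) in KO replicates 1, 2 and 3, against 74.7, 76.5 and 62.1 CPM in WT replicates 1, 2 and 3, so no library went against its genotype label. The fat label also held, since Adipoq, an adipocyte hormone, lay between 1571 and 2879 CPM in KO and between 1306 and 1574 CPM in WT. Library totals lay between 17970451 and 20369345 estimated counts. Summed over 8 skeletal muscle genes, the level was 3790, 626 and 3453 CPM in KO replicates 1, 2 and 3, against 15.6, 8.21 and 11.8 CPM in WT. Summed over 8 adipocyte genes, it was 18139, 11555 and 20305 CPM in KO, against 9022, 7936 and 10734 CPM in WT. KO replicate 2 was the KO library nearest to WT in both sums, and KO replicates 1 and 3, the KO libraries low in B cell genes, held the most muscle and adipocyte RNA. The B cell results are given with and without KO replicate 2. Over all 16656 genes tested in edgeR's quasi-likelihood test, 144 rose and 27 fell in KO at an adjusted p of 0.05, which is 0.865% and 0.162% of the genes tested, or 1.03% in either direction. These counts were 2410 and 1811 without KO replicate 2 and 104 and 230 without WT replicate 3, and leaving out any other 1 library left at most 2 in either direction.

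The promoters of 6 of the 9 genes were in the RefSeq table for GRCm38.p6, as 8 windows of 250 bases before to 50 bases after a start site. Cd22 is shown because it was the only one of the 8 windows with either motif searched, and Cd79a because it had the highest level of the 9 genes per exon length. Both are written 5′ to 3′ along the gene's own strand, and the capitals mark the match in Cd22.
Cd22, chr7:30878979-30879278, minus strand: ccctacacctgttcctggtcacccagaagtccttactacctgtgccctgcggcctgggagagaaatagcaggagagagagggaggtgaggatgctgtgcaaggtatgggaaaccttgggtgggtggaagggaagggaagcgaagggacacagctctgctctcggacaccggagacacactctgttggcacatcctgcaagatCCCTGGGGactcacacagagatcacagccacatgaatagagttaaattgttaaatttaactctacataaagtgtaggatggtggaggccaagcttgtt
Cd79a, chr7:24897247-24897546, plus strand: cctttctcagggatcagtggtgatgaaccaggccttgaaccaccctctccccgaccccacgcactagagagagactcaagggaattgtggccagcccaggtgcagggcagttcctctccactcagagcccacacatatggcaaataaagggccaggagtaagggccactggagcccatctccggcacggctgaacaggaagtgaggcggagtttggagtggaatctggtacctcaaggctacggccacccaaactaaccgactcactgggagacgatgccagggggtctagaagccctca
The motifs were the octamer ATGCAAAT, bound by OCT factors, and CCCNNGGG, the core of the motif bound by the early B cell factor EBF1, which reads the same on both strands. The octamer was searched on both strands. The match in Cd22 starts at position -48 from the start site. CCCNNGGG was found in 1 of the 8 windows and in 13.7% of all 32851 promoter windows. The octamer was found in 0 of the 8 and in 1.74% of all windows. The windows of Ms4a1, Cd79b and Blk were not looked at here.

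All 9 genes had the same order among the KO libraries, with KO replicate 2 highest, KO replicate 1 in between and KO replicate 3 lowest. The summed level was 678, 1469 and 334 CPM in KO replicates 1, 2 and 3, against 1449, 1422 and 1273 CPM in WT replicates 1, 2 and 3. KO replicates 1 and 3 thus held 49.1% and 24.2% of the WT mean, and KO replicate 2 held 106%. The sum averaged 827 ± 582 CPM in KO and 1381 ± 94.6 CPM in WT (SD, n = 3 each). None of the 9 genes passed the test in edgeR over all 6 libraries, where 0.162% of all genes tested were called lower. Their log2 fold changes were all negative, between -0.91 for Cr2 and -0.58 for Cd79b, with a median of -0.75 beside -0.06 over all genes tested. A negative value was held by 55.8% of all genes tested. Their adjusted p-values lay between 0.236 and 0.463 in edgeR, and 0 of the 9 had an unadjusted p under 0.05, which 22.6% of all genes had. DESeq2 and limma-voom also called none of the 9, while 3 and 4 of them had an unadjusted p under 0.05 there, as had 23.1% and 23.2% of all genes tested. DESeq2 called 3.6% of all genes tested lower and 10.9% in either direction, and limma-voom called 0.006% lower and 0.0961% in either direction.

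**Figure D1:**
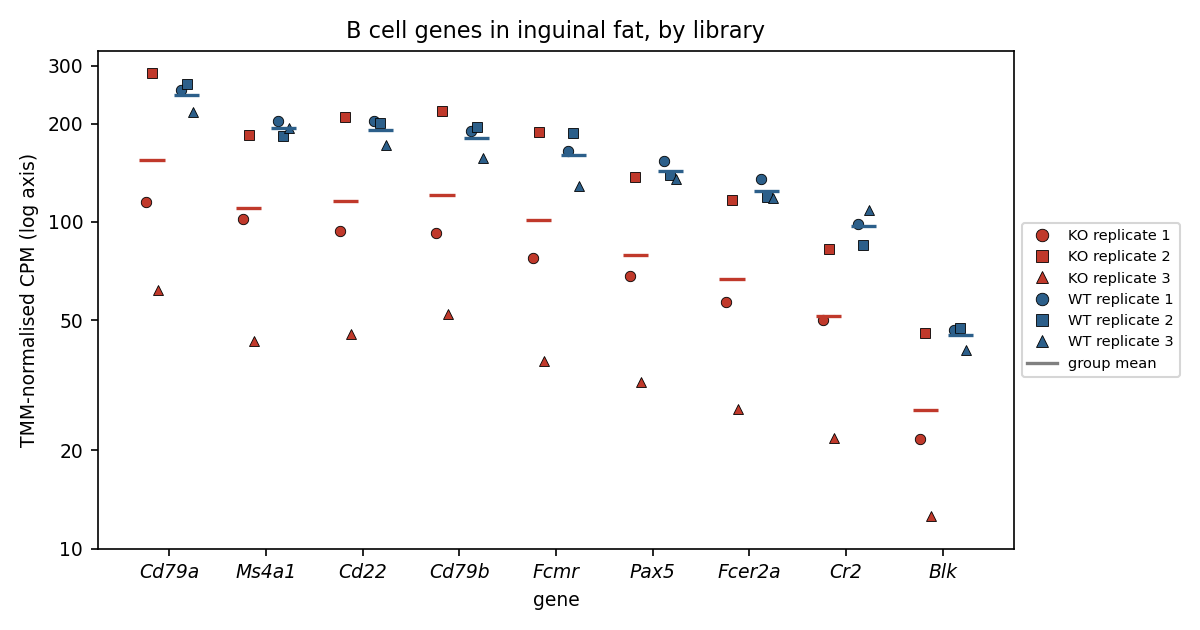
TMM-normalised CPM (log axis) of the 9 B cell genes in each library, with KO to the left of WT for each gene, a symbol for each replicate and a bar for the group mean. KO replicates 1 and 3 lie under every WT library for all 9 genes, a share that was not counted over all genes. KO replicate 2 lies among or beside the WT libraries.

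Of the signal-carrying pair of the B cell receptor, Cd79a (ENSMUSG00000003379, chromosome 7) had 115, 286 and 62.0 CPM in KO replicates 1, 2 and 3, against 254, 265 and 218 CPM in WT replicates 1, 2 and 3. Cd79b (ENSMUSG00000040592, chromosome 11) had 92.5, 218 and 52.2 CPM in the same KO libraries, against 189, 195 and 157 CPM in WT. For both genes KO replicate 2 was above all WT libraries and the other KO libraries were below them, so the groups overlapped. The log2 fold change was -0.67 for Cd79a (SE 0.48, edgeR adjusted p = 0.425) and -0.58 for Cd79b (SE 0.45, adjusted p = 0.463).

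Blk (ENSMUSG00000014453, chromosome 14), a Src-family kinase that acts next to the receptor, had 21.7, 45.7 and 12.6 CPM in KO replicates 1, 2 and 3, against 46.8, 47.3 and 40.7 CPM in WT. Its KO replicate 2 lay inside the WT range, and the difference did not pass (log2 fold change -0.75, SE 0.40, edgeR adjusted p = 0.304). Cd22 (ENSMUSG00000030577, chromosome 7), a sialic acid-binding receptor that dampens B cell receptor signals, had 93.9, 209 and 45.6 CPM in KO, against 203, 200 and 172 CPM in WT. Here KO replicate 2 was above all WT libraries (log2 fold change -0.72, SE 0.47, adjusted p = 0.382). Cd22 was the only member with counts that were not whole numbers, in 2 libraries.

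Cr2 (ENSMUSG00000026616, chromosome 1), the complement receptor that raises B cell receptor signals, had 50.2, 82.9 and 21.9 CPM in KO replicates 1, 2 and 3, against 98.4, 84.7 and 109 CPM in WT. All KO libraries were below all WT libraries, though KO replicate 2 was only just below WT replicate 2. Cr2 had the lowest fold change of the 9 genes, with a mean of 51.7 ± 30.5 CPM in KO and 97.2 ± 12.0 CPM in WT (SD, n = 3 each; log2 fold change -0.91, SE 0.41, edgeR adjusted p = 0.236). The gene is also known from follicular dendritic cells, stromal cells that hold antigen in B cell follicles. Ms4a1 (ENSMUSG00000024673, chromosome 19), which encodes the surface protein CD20, had 102, 185 and 43.2 CPM in KO, against 204, 184 and 194 CPM in WT. KO replicate 2 was just above WT replicate 2, the lowest WT value, and the difference did not pass (log2 fold change -0.82, SE 0.44, adjusted p = 0.306).

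Fcer2a (ENSMUSG00000005540, chromosome 8), which encodes CD23, the low-affinity receptor for IgE, had 57.0, 117 and 26.8 CPM in KO replicates 1, 2 and 3, against 135, 120 and 118 CPM in WT. The groups did not overlap, but KO replicate 2 was close to WT replicate 3 (log2 fold change -0.89, SE 0.45, edgeR adjusted p = 0.277). Cr2 and Fcer2a were the 2 of 9 genes without overlap, and 13.1% of all genes tested had all KO libraries below all WT libraries. Fcmr (ENSMUSG00000042474, chromosome 1), the receptor for IgM, had 77.4, 188 and 37.5 CPM in KO, against 165, 187 and 129 CPM in WT. It varied most within each group, 5.03-fold between the highest and lowest KO library and 1.45-fold between the WT libraries (log2 fold change -0.67, SE 0.51, adjusted p = 0.450).

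Pax5 (ENSMUSG00000014030, chromosome 4), the transcription factor that fixes B cell identity, had 68.1, 137 and 32.5 CPM in KO replicates 1, 2 and 3, against 153, 139 and 136 CPM in WT. KO replicate 2 lay inside the WT range, and KO replicates 1 and 3 lay below it. The log2 fold change was -0.85 (SE 0.44, edgeR adjusted p = 0.291).

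The 9 genes kept close to each other from library to library. In KO replicate 1 they lay between 45.8% and 52.6% of their own WT means, in KO replicate 2 between 85.3% and 121%, and in KO replicate 3 between 21.5% and 28.9%. The WT libraries held 80.6% to 117% of those means. The highest KO library had 3.64 to 5.03 times the level of the lowest KO library, depending on the gene, while the WT libraries differed by 1.11 to 1.45 times. On the scale of log2(CPM + 0.5), centred for each gene on its mean over the 6 libraries, the mean of the 9 genes had an SD of 0.86 over libraries. A single gene departed from that mean by a median of 0.07, and by at most 0.32, for Cr2 in WT replicate 3.

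**Figure D2:**
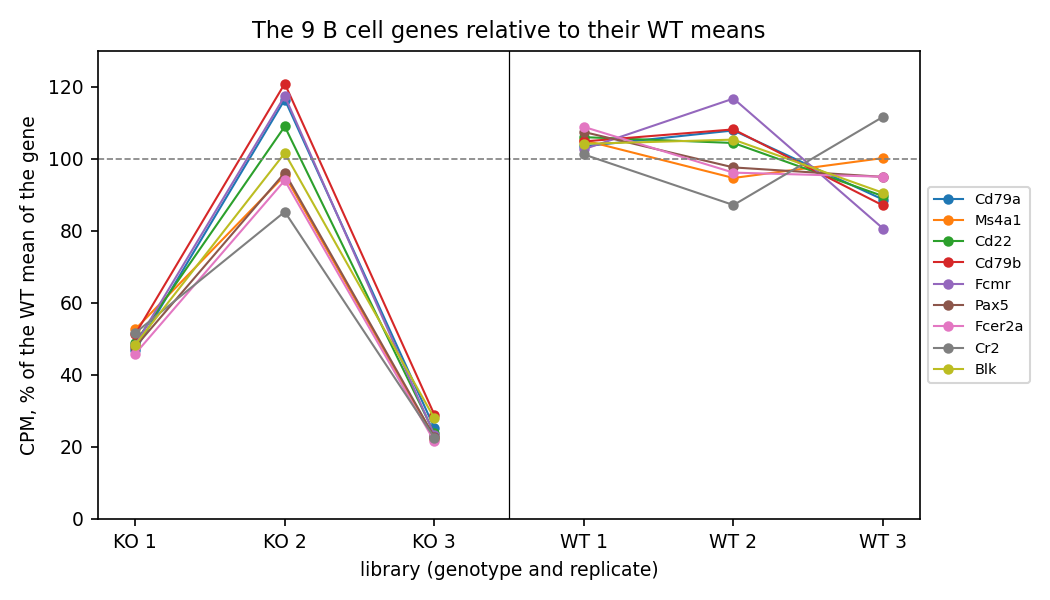
CPM of each of the 9 genes in each library as a percentage of that gene's WT mean (dashed line at 100%), KO libraries on the left and WT libraries on the right. The lines join the points of 1 gene and carry no order. The 9 genes stay close together in each library, near 48% in KO replicate 1, 102% in KO replicate 2 and 23% in KO replicate 3.

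The makeup of the group changed less than its sum. Cd22 took 13.5% to 14.2% of the summed counts of the 9 genes in every library, and Cd79a 17.0% to 19.5%. Cr2 had the widest range, with 7.40%, 5.64% and 6.55% in KO replicates 1, 2 and 3, against 6.79%, 5.96% and 8.53% in WT. Cd79b took 13.6%, 14.9% and 15.6% in KO, against 13.1%, 13.7% and 12.3% in WT. Its share was above WT replicates 1 and 3 in every KO library, but the groups overlapped at WT replicate 2.

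Per exon length, on CPM per kilobase of exon in the GENCODE M21 annotation, which also gave the chromosomes named above, the order of levels was Cd79a, Cd79b, Fcmr, Fcer2a, Cd22, Ms4a1, Blk, Pax5 and Cr2 in the WT means. Cd79a averaged 106 ± 80.2 CPM per kilobase in KO and 168 ± 16.9 in WT (SD, n = 3 each), and Cr2 averaged 6.37 ± 3.76 in KO and 12.0 ± 1.47 in WT. The 3 highest genes and the lowest kept their ranks in every library. Fcer2a and Cd22 changed places between libraries, with 21.6 ± 14.8 and 23.0 ± 16.6 CPM per kilobase in KO and 40.2 ± 3.09 and 38.0 ± 3.43 in WT. Blk and Pax5 did so too, with 9.88 ± 6.33 and 8.95 ± 6.01 in KO and 16.7 ± 1.37 and 16.1 ± 1.06 in WT. Cd22 was above Fcer2a in every KO library and in WT replicate 2, and below it in WT replicates 1 and 3. Blk was above Pax5 in every library but WT replicate 3. These SDs are between libraries and do not measure the difference within a pair, which was not tested. The exon lengths cover every annotated isoform, and the isoforms used in this tissue were not measured.

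Without KO replicate 2, all 9 genes fell in KO, in a fit where 10.9% of all genes tested were called lower and 25.3% were called in either direction. This fit rests on 2 KO and 3 WT libraries. It leaves out the KO library that was highest in all 9 genes, picked with its values known. The lower fold changes were thus largely fixed by that choice, and their p-values add no separate evidence. The same choice lies behind every fit without KO replicate 2 given here. The log2 fold changes then lay between -1.51 for Fcer2a (SE 0.29, edgeR adjusted p = 0.0136) and -1.26 for Cd79b (SE 0.24, adjusted p = 0.0121), with a median of -1.40. Blk had the smallest adjusted p, at 0.00849, and Ms4a1 the largest, at 0.0264. With KO replicate 1 left out the median of the 9 was -0.62 and with KO replicate 3 left out it was -0.41, and none of the 9 passed. Those fits called only 1 and 3 of all 16656 genes tested. Leaving out any 1 WT library left the median between -0.82 and -0.71 with none past the test. The fits without WT replicates 1, 2 and 3 called 1, 1 and 334 of all genes tested. With the replicate number as a block, a fit in which 2.61% of all genes were called lower and 7.35% in either direction, 0 of the 9 passed and 8 had an unadjusted p under 0.05, as had 26% of all genes tested.

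**Figure D3:**
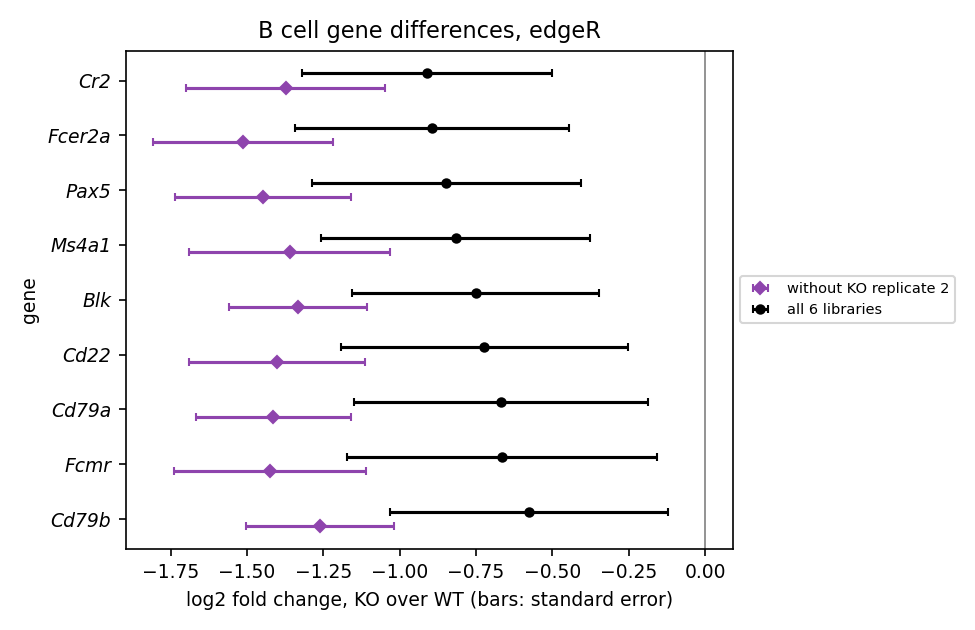
Log2 fold change of KO over WT in edgeR for each of the 9 genes, with bars for the standard error, over all 6 libraries (black circles) and without KO replicate 2 (purple diamonds). All values are negative, between -0.91 and -0.58 over all libraries and between -1.51 and -1.26 without KO replicate 2. The library left out was the highest KO library in all 9 genes and was picked with its values known.

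A further 30 genes of B cell surface receptors, signalling and transcription were read beside the 9. None passed over all 6 libraries in edgeR. An unadjusted p under 0.05 was held by 4 of them (Ralgps2, Pik3ap1, Tlr9 and Cd40), beside 22.6% of all genes tested. All 30 had negative log2 fold changes, between -1.13 and -0.33, with a median of -0.74. KO replicates 1 and 3 were below all WT libraries in 30 of the 30 genes, a share that was not counted over all genes. KO replicate 2 was below them too in 3 of the 30. All KO libraries were below all WT libraries in 13.1% of all genes tested. Cd37, a tetraspanin, had a log2 fold change of -0.65, H2-Ob, an MHC class II chaperone chain, one of -0.73, and Ciita, the activator of MHC class II genes, one of -0.68. Among transcription factors Pou2af1, a partner of OCT factors, had -0.59, Spib, an Ets factor, had -0.67, and Ikzf3, of the Ikaros family, had -0.79. Pik3ap1, an adaptor for phosphoinositide 3-kinase that myeloid cells also express, had the lowest value, -1.13 (SE 0.38, adjusted p = 0.141). Ralgps2 had the same rounded value (adjusted p = 0.129). In DESeq2 Pik3ap1 and Ralgps2 fell (adjusted p = 0.0281 and 0.0226) and the other 28 did not pass. Without KO replicate 2, 29 of the 30 fell, beside 10.9% of all genes tested, and Fcrl5 did not pass (edgeR adjusted p = 0.206).

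Of 6 germinal centre genes none passed in edgeR, and their median log2 fold change was 0.31. Only S1pr2, 1 of the 6, had an unadjusted p under 0.05, beside 22.6% of all genes tested. Bcl6, the germinal centre repressor that other cells also express, had 49.8, 58.6 and 50.6 CPM in KO, against 51.3, 52.9 and 54.2 CPM in WT. S1pr2, Gcsam and Mybl1 had log2 fold changes of -0.81, -0.52 and 0.61. Of 5 B cell precursor genes 2 were tested, Dntt with a log2 fold change of -0.14 and Rag1 with one of -1.65 (SE 0.71, adjusted p = 0.221), both under 3 CPM in every library. Rag2, Vpreb1 and Igll1 had at most 8 counts in any library and were not tested.

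Among the 10 genes whose pattern over the 6 libraries was most like the mean of the 9 were H2-Eb2, H2-DMb2, H2-Ob, Bank1, Ripor2, Ciita, Ly6d, Fanca and Siglecg. The measure was the root mean square difference of centred log2(CPM + 0.5), which ran from 0.04 for H2-Eb2 to 0.07 for Siglecg, over 13314 named genes with a mean of at least 2 CPM. H2-Eb2 had 28.2, 56.8 and 12.8 CPM in KO replicates 1, 2 and 3, against 58.2, 59.0 and 52.4 CPM in WT. Fanca, at a mean of 3.83 CPM, had the lowest level of the 10. Of the 50 most alike, 15 were among the 30 other B cell genes, 1 was on the immunoglobulin and plasma cell list (Ighd) and 0 were among the 20 T cell genes. The other 34 were on no list, and these included Iglc3, also an immunoglobulin gene.

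T cell genes shared the order of the KO libraries but not the order of the WT libraries. Summed over 20 T cell genes, the level was 886, 1707 and 531 CPM in KO replicates 1, 2 and 3, against 1186, 1330 and 1428 CPM in WT replicates 1, 2 and 3. KO replicate 2 was above every WT library in T cell genes, and WT replicate 1, the highest WT library in the 9 B cell genes, was the lowest in T cell genes. None of the 20 passed in edgeR or in DESeq2. In edgeR 0 had an unadjusted p under 0.05, beside 22.6% of all genes tested. The median log2 fold change was -0.31, with -0.30 for Tcf7, -0.13 for Cd4, -0.32 for Il7r and -0.46 for Lck. Without KO replicate 2, 17 of the 20 fell, with a median of -0.85, and Cd4, Il7r and Bcl11b did not pass. That fit called 10.9% of all genes tested lower. Without KO replicate 3 the median was 0.02. The ratio of the 9 B cell genes to the 20 T cell genes, in summed CPM, was 0.765, 0.860 and 0.629 in KO replicates 1, 2 and 3, against 1.22, 1.07 and 0.892 in WT. The groups did not overlap in this ratio, KO replicate 2 included, though KO replicate 2 and WT replicate 3 were close. It was chosen after the values were seen and carries no test.

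**Figure D4:**
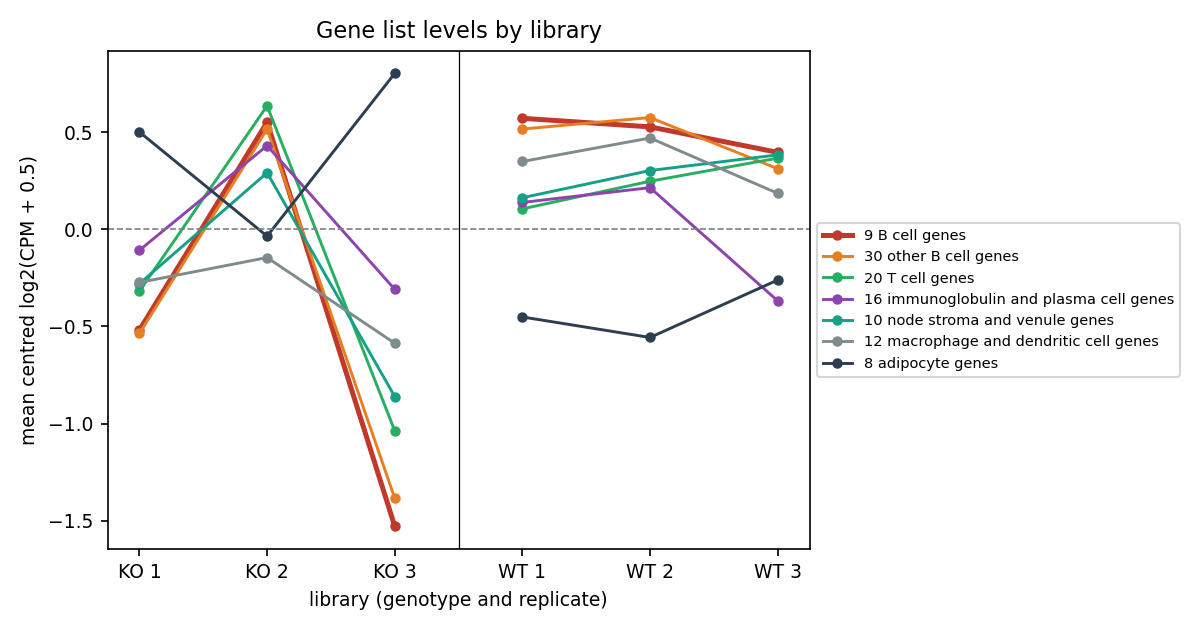
Mean over each gene list of log2(CPM + 0.5), centred for each gene on its mean over the 6 libraries, with KO libraries on the left and WT libraries on the right; lines join 1 list and carry no order, and the skeletal muscle genes are left out for scale. The 9 B cell genes stand at -0.52, 0.55 and -1.53 in KO replicates 1, 2 and 3, beside 0.50, -0.04 and 0.80 for the adipocyte genes.

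Genes of lymph node stroma and high endothelial venules, the vessels through which lymphocytes enter a node, were detected in every library. Their sum was 493, 872 and 360 CPM in KO replicates 1, 2 and 3, against 635, 686 and 783 CPM in WT, so KO replicate 2 was again the highest KO library and above all WT libraries. Glycam1, a venule mucin, had 93.5, 249 and 77.7 CPM in KO, against 176, 209 and 172 CPM in WT (log2 fold change -0.41, SE 0.41, edgeR adjusted p = 0.562). Cxcl13, the chemokine that draws B cells into follicles, had 67.8, 83.1 and 31.4 CPM in KO, against 148, 143 and 125 CPM in WT (log2 fold change -1.19, SE 0.32, adjusted p = 0.0905). Its groups did not overlap, and it was below every WT library in KO replicate 2, as were 2 of the 9 genes. Of the 10 genes none passed in edgeR, and the median log2 fold change was -0.52. An unadjusted p under 0.05 was held by 2 (Cxcl13 and Madcam1), beside 22.6% of all genes tested. Cxcl13 fell in DESeq2 (adjusted p = 0.00556), where the other 9 did not pass. Ccl21a, whose near-identical copies make its count uncertain, had a log2 fold change of 0.04, and Ltbr, a receptor found on many cells, one of 0.12. Without KO replicate 2, 5 of the 10 fell (Cxcl13, Ccl19, Glycam1, Chst4 and Fut7), beside 10.9% of all genes tested. Whether the amount of lymph node in each sample accounts for the B cell values was not tested.

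Of 16 immunoglobulin and plasma cell genes, 11 had negative log2 fold changes, with a median of -0.35. In edgeR 5 of the 16 had an unadjusted p under 0.05, beside 22.6% of all genes tested. Ighd, the constant region of IgD, carried by mature naive B cells, had 190, 442 and 103 CPM in KO replicates 1, 2 and 3, against 451, 443 and 358 CPM in WT (log2 fold change -0.77, SE 0.47, edgeR adjusted p = 0.353). Ighm, Igkc and Xbp1, a plasma cell factor that many secretory cells express, had log2 fold changes of -0.52, -0.34 and -0.11. Those of Ighg2b, Iglc1, Jchain and Tnfrsf17 were positive, at 2.06, 0.65, 0.53 and 0.51, and did not pass. Igha, the constant region of IgA, was the 1 of the 16 that was called in edgeR, beside 1.03% of all genes tested. It rose, with 80.8, 104 and 52.2 CPM in KO, against 14.8, 7.65 and 7.98 CPM in WT (log2 fold change 2.97, edgeR adjusted p = 0.0280). Its KO order was that of the 9 genes, while its direction was opposite. Reads shared between immunoglobulin genes leave these values uncertain. Igha did not pass without KO replicate 1, WT replicate 1 or WT replicate 2, in fits that called 0 of all genes tested higher. It rose in DESeq2 (adjusted p = 1.57e-16), with the replicate block (edgeR adjusted p = 0.0126) and without KO replicate 2 (edgeR adjusted p = 0.0035). DESeq2 also called Irf4 and Prdm1 lower (log2 fold change -0.82 and -0.85, DESeq2 adjusted p = 0.0030 and 0.0341), beside 3.6% of all genes tested.

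Markers of other cell types were read in the same libraries. Of 12 macrophage and dendritic cell genes none passed in edgeR and 6 had an unadjusted p under 0.05, beside 22.6% of all genes tested. Their median log2 fold change was -0.58, with sums of 1843, 2111 and 1748 CPM in KO, against 3094, 3692 and 2558 CPM in WT. In this list KO replicate 2 stayed below all WT libraries. Lyz2, Csf1r, Mrc1 and Cd163 had log2 fold changes of -0.78, -0.32, -0.64 and 0.06. Of the 12 values 10 were negative, beside 55.8% of all genes tested. The lowest were -1.59 for Itgam, -1.38 for Cd68 and -1.09 for Adgre1 (edgeR adjusted p = 0.0595, 0.0630 and 0.0808). DESeq2 called Itgam, Cd68, Adgre1 and Lyz2 lower, 4 of the 12, beside 3.6% of all genes tested. Of the 8 adipocyte genes, Slc2a4, the insulin-responsive glucose transporter, rose (log2 fold change 1.49, edgeR adjusted p = 0.0435) and 7 did not pass. All 8 log2 fold changes were positive, and their median was 0.88. Without KO replicate 1, KO replicate 3, WT replicate 1 or WT replicate 2 none of the 8 passed, in fits that called at most 3 of all genes, but the median stayed between 0.65 and 0.88. Without KO replicate 2, 8 of the 8 passed, beside 25.3% of all genes tested. Fabp4, Adipoq, Cidec and Lipe had log2 fold changes of 0.90, 0.66, 0.73 and 0.86. Over all 6 libraries, edgeR called 0.865% of all genes tested higher. All 8 skeletal muscle genes (Acta1, Myh4, Ckm, Atp2a1, Tnnt3, Mylpf, Pvalb and Tcap) rose in edgeR, with a median fitted log2 fold change of 9.73. The same 4 fits called none of the 8, but their medians were between 9.38 and 10.03. In each, 8 of 8 had an unadjusted p under 0.05, beside 2314 to 2652 of all 16656 genes tested. Within KO, the adipocyte sum ran opposite to the 9 B cell genes, with KO replicate 3 highest and KO replicate 2 lowest. The part of adipocyte and muscle RNA in the B cell values was not tested.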

How the data were processed

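Poly(A) RNA libraries of iWAT were made with a stranded Illumina kit, per the labels' protocols. The deposited table holds estimated counts per gene for each library, which the authors did not scale between libraries or pool; 9.53% to 11.1% of values per library were not whole. The submitters' processing notes name fastp, featureCounts, GRCm38 and GRCm39 for the whole series. The quantifier and build of this table are not given in the sources used here.

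Estimated counts were rounded to whole numbers for the tests, and symbols came from GENCODE M21 (26372 of 33200 identifiers matched, 79.4%). A list gene with several tested identifiers was read from the one with most counts. edgeR 4.0.16 in R 4.3.3 was run with TMM, filterByExpr, robust quasi-likelihood F-tests (two-sided) and Benjamini-Hochberg adjustment over the 16656 genes tested. DESeq2 1.42.0, limma-voom (limma 3.58.1), other size factors, no low-count filter, estimation without the robust option, the replicate number as a block and dropping each library were alternatives. A standard error is the log2 fold change over the square root of F. P-values measure the spread between these 6 animals' samples only. One count was worth 0.0491 to 0.0556 CPM before TMM. No 2 libraries were identical.

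The 9 genes, the other lists and the naming rule were chosen with earlier results of these data known. Named genes are all members, Nrep, from each other list the genes past the test and the 4 highest in mean CPM (8 for other B cell genes), and the 10 most alike; genes named beyond these, as behind small counts, were chosen after their values were seen. Some genes this rule names are not reported here. On counts simulated for KO against WT with 200 of the genes changed, 60% of the 100 changed 2-fold and 92% of the 100 changed 4-fold were found by edgeR among 16510 genes kept, with 4 false calls among 156. The changed genes were taken only from those above a set mean level, and each gene was drawn independently. No simulated library shifted many genes together, so these shares need not hold for the 9 genes, which varied together.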

Additional observations from a re-analysis of the deposited data

How the results depend on the processing

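The log2 fold changes of the 9 B cell genes were negative in all 13 alternatives, between -1.51 (Fcer2a, without KO replicate 2) and -0.22 (Cd79b, without KO replicate 3), and each gene passed in 1 of the 13, the fit without KO replicate 2. These fits reuse the same libraries, and the kept direction adds no separate evidence. Leaving out 1 library gave 0 to 9 of the 9 genes called lower. Counts over all genes, 144 higher and 27 lower in edgeR, were 1223 and 600 in DESeq2, 15 and 1 in limma-voom and 928 and 442 with no filter. Library totals alone gave 129 and 49 and shifted all genes by -0.134 in the median (log2). Leaving out 1 library gave 0 to 2410 higher and 1 to 1811 lower.

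Same-numbered KO and WT libraries had correlations of -0.01, 0.22 and 0.11 between their deviations from the group means. KO replicates 2 and 3 correlated best with the WT library of their own number, and KO replicate 1 with WT replicate 3 (0.18). With 3 libraries per group, these correlations cannot settle whether the numbers mark pairs. The main fit did not take them as pairs, and the fit with the replicate block is given beside it. With the replicate block 790 genes were higher and 435 lower, 0 of the 9 genes passed, and 4 other B cell genes were lower (Cd40, Pik3ap1, Plcg2 and Tlr9). In that fit 1 stroma gene, 1 immunoglobulin gene and 2 macrophage genes were lower and 4 adipocyte genes higher.

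Of the 30 other B cell genes, 2 were called lower in DESeq2 and 0 to 29 when 1 library was left out. DESeq2 called 3.6% of all genes tested lower. In each list given here, the most genes were called lower without KO replicate 2, where 10.9% of all genes tested were. For the 10 stroma genes the counts in DESeq2 and over the left-out libraries were 1 and 0 to 5. They were 2 and 0 to 7 for the 16 immunoglobulin and plasma cell genes, and 4 and 0 to 4 for the 12 macrophage genes. With no filter, 1 immunoglobulin and 2 macrophage genes were lower, beside 442 of all 33094 genes tested. Leaving out 1 library gave 0 to 1 of 6 germinal centre and 0 to 17 of 20 T cell genes lower, and 0 to 1 of 16 immunoglobulin genes higher. Of the 8 adipocyte genes, 7 were higher in DESeq2, 0 in limma-voom, 5 with no filter and 0 to 8 over the left-out libraries. Over all genes those counts were 1223, 15, 928 and 0 to 2410. Of the 8 muscle genes, 1 was higher in limma-voom and 0 to 8 over the left-out libraries.

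Directions near zero turned. Under library totals, limma-voom and the replicate block, Ccl21a had -0.061, -0.019 and -0.0048 and Cd163 -0.11, -0.070 and -0.072, and library totals gave -0.12 for Bcl6 and -0.023 for Ltbr. Over the left-out libraries the log2 fold change ran from -0.34 to 0.35 for Ccl21a, -0.38 to 0.46 for Cd163, -0.015 to 0.049 for Bcl6, -0.62 to 0.22 for Dntt, -0.80 to 0.022 for Tcf7, -0.66 to 0.20 for Cd4, -0.67 to 0.0072 for Il7r and -0.22 to 0.10 for Xbp1. The level of the 9 genes in each library moved by less than 1 SD of its group under the other scalings, a pseudocount of 0.1 and without Cd79a. In KO this level ran from -1.53 to 0.55, so its SD was wide and the check was a weak one for the KO libraries. The causes of these shifts were not tested.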
